A study of Mus musculus with 37 samples.

Results

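The 10 genes of T cell co-stimulation described here were followed across 37 mouse tumours: Cd40 and its ligand gene Cd40lg, Cd80 and Cd86 with their receptor gene Cd28, Icosl with its receptor gene Icos, Tnfsf4 (OX40 ligand) with its receptor gene Tnfrsf4 (OX40), and Tnfrsf9 (4-1BB). They are 10 of the 39017 rows of the deposited count table and were taken by symbol. Clones of pancreatic tumour cells had been implanted under the skin of C57BL/6 mice that received no treatment, and the whole tumours were taken for RNA sequencing 3 weeks later. The labels give a T cell phenotype of high to 15 tumours of 7 clones, low to 15 tumours of 7 clones and intermediate to 4 tumours of 2 clones, and 3 tumours of 3 further clones have none. Names such as bulk_6556c3 are clones (shown without their prefix in the plots), and the tumours of a clone carry numbers from 1. The labels state neither how the phenotype was measured nor the genotype of the clones. Each clone is 1 implanted cell population, so clones, not tumours, were the replicates of a phenotype.

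T cells need a second signal beside the antigen receptor. CD28 gives it when it binds CD80 or CD86 on an antigen-presenting cell. CD40 on that cell, engaged by CD40 ligand from helper T cells, is known to raise CD80 and CD86 through NF-kB. ICOS, OX40 and 4-1BB are receptors of activated T cells that sustain the response, and regulatory T cells carry them too. Several of these genes are also read outside the pairs named here, since 4-1BB and OX40 ligand can be made by cells that are not T cells or dendritic cells. In whole tumours, fewer cells of a type and less RNA per cell cannot be told apart.

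The genes lie on 6 chromosomes of GRCm38 (GENCODE M21). Cd28 (chromosome 1, 60716800 to 60773359) and Icos (60977927 to 61000320) sit in 1 cluster with the inhibitory receptor gene Ctla4 between them. Tnfsf4 is on the same chromosome at 161395409 to 161418410. Cd40 is on chromosome 2 (165055627 to 165072948). Tnfrsf9 (150914562 to 150946102) and Tnfrsf4 (156013843 to 156016612) are on chromosome 4, the latter 9.55 kb from Tnfrsf18, another co-stimulatory receptor gene. Icosl is on chromosome 10 (78069302 to 78083913), Cd86 (36603869 to 36666081, minus strand) and Cd80 (38455561 to 38496335) are on chromosome 16, and Cd40lg is on the X chromosome (57212143 to 57224042). All but Cd86 are on the plus strand. Counts are over the exons of each gene, and no exon base of the 10 genes is shared with another annotated gene.

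Promoters (250 bases before to 50 after a start) were given by RefSeq on GRCm38.p6 for 4 of the 10 genes, namely Tnfrsf9, Tnfrsf4, Icosl and Cd80. The 3 promoters that hold a match to a motif of NF-kB or AP-1, factors that act downstream of CD40 and CD28, are shown for that reason. Capitals mark the matches on either strand to NF-kB, to AP-1 (TGANTCA) and to the TATA box (TATAAA), and all 3 sequences are of the plus strand.
Tnfrsf9 (second start), chr4:150927749-150928048: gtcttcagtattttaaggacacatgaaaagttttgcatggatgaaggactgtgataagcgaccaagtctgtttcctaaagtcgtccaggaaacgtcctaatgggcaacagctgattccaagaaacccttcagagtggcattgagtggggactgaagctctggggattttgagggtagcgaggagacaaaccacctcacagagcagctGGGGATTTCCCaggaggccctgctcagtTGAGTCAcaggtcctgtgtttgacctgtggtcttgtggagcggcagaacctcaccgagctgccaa
Icosl, chr10:78069118-78069417: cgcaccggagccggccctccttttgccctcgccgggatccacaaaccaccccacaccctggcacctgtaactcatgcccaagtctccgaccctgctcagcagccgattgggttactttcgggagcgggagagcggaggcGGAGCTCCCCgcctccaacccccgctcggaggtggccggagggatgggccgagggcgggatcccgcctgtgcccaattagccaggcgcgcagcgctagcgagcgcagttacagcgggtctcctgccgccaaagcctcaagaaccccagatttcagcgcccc
Cd80, chr16:38458683-38458982: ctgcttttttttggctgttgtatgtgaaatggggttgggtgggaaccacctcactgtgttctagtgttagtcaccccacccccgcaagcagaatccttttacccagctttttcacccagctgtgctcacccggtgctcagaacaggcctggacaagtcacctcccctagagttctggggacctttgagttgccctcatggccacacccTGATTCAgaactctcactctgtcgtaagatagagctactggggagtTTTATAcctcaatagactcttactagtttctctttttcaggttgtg
The run of capitals GGGGATTTCCC of Tnfrsf9 holds 2 overlapping NF-kB matches and is followed by an AP-1 match, while Icosl has 1 NF-kB match and Cd80 1 AP-1 match and 1 TATA box match on the reverse strand. NF-kB matches occur in 8.46% of 32851 promoters of this length, AP-1 matches in 7.81% and TATA box matches in 13.6%. The first start of Tnfrsf9 and the promoter of Tnfrsf4 hold no match to any of them, nor to the ISRE core. A match is a description of letters only.

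Libraries of the 34 tumours with a phenotype held between 7.39 M and 102.3 M counts. A sum of Myh6, Myh7, Cps1 and Serpina3k, genes of heart muscle and liver, was at 257.7 to 5922 CPM (counts scaled to library size) in 17 of them, and at most 0.539 CPM in the other 17. Every tumour numbered 1 was among the first 17, with 1 of 18 later tumours. Tumours numbered 1 of 7 clones (bulk_2838c3, bulk_6419c5, bulk_6499c4, bulk_6555c3, bulk_6556c4, bulk_6620c1 and bulk_6694c2) were closer to each other, in every pair, than any 2 tumours of 1 clone. They include high and low clones. The closest pair, of high clones bulk_6499c4 and bulk_6555c3, differed by a chi-square of 3.35 per gene, the farthest of these pairs by 39.56, and the closest pair of tumours of 1 clone by 52.97. Results are therefore given also on the 17 libraries without liver and heart transcripts, which come from 7 high, 6 low and 2 intermediate clones. The summed T cell list (14 genes) was 11.1 to 58.6 CPM in high and 7.57 to 18.9 CPM in low clones. The ranges overlap, so the list separates the labels only in part. None of its 14 genes was at 0 in all tumours, and none passed the test between high and low clones (edgeR, 10 of 14 with unadjusted p below 0.05).

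Per kilobase of exon, Tnfrsf9 was the most abundant of the 10 genes and Cd40lg the least. Over 15 clones in libraries without liver and heart transcripts, Tnfrsf9 averaged 11.7 ± 4.51 CPM per kb (SD), and it was above the next gene in all 15 clones. Icosl followed at 2.74 ± 1.02 and Cd86 at 2.73 ± 1.30 CPM per kb, and Icosl was the higher of the 2 in only 9 of 15 clones, so their order does not hold beyond the spread. Cd80 came next at 2.01 ± 1.09 CPM per kb, above Tnfrsf4 at 1.57 ± 1.13 in 11 clones. Tnfrsf4 in turn was above Cd40 (1.31 ± 0.676) in 9 clones. Cd40 was above Tnfsf4 (0.932 ± 1.03) in 11 clones, and Tnfsf4 above Icos (0.377 ± 0.261) in 9 clones. Icos was above Cd28 (0.133 ± 0.0851) in all 15 clones, and Cd28 above Cd40lg (0.0391 ± 0.0568) in all 15. With all libraries and 16 clones, Cd86 (2.89 CPM per kb) stood before Icosl (2.57) and Tnfrsf4 (1.90) before Cd80 (1.88), and the other places were the same.

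Cd40lg was close to the limit of detection. It had 195 counts in all 37 libraries together and 0 counts in 14 of them, where 3 counts would correspond to 0.0679 to 0.149 CPM. Its counts were under 10 in 31 of 37 libraries, so its differences are given as values with little weight. Counts of the other 9 genes summed to between 2308 (Tnfsf4) and 41963 (Tnfrsf9) over the 37 libraries.

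**Figure D1:**
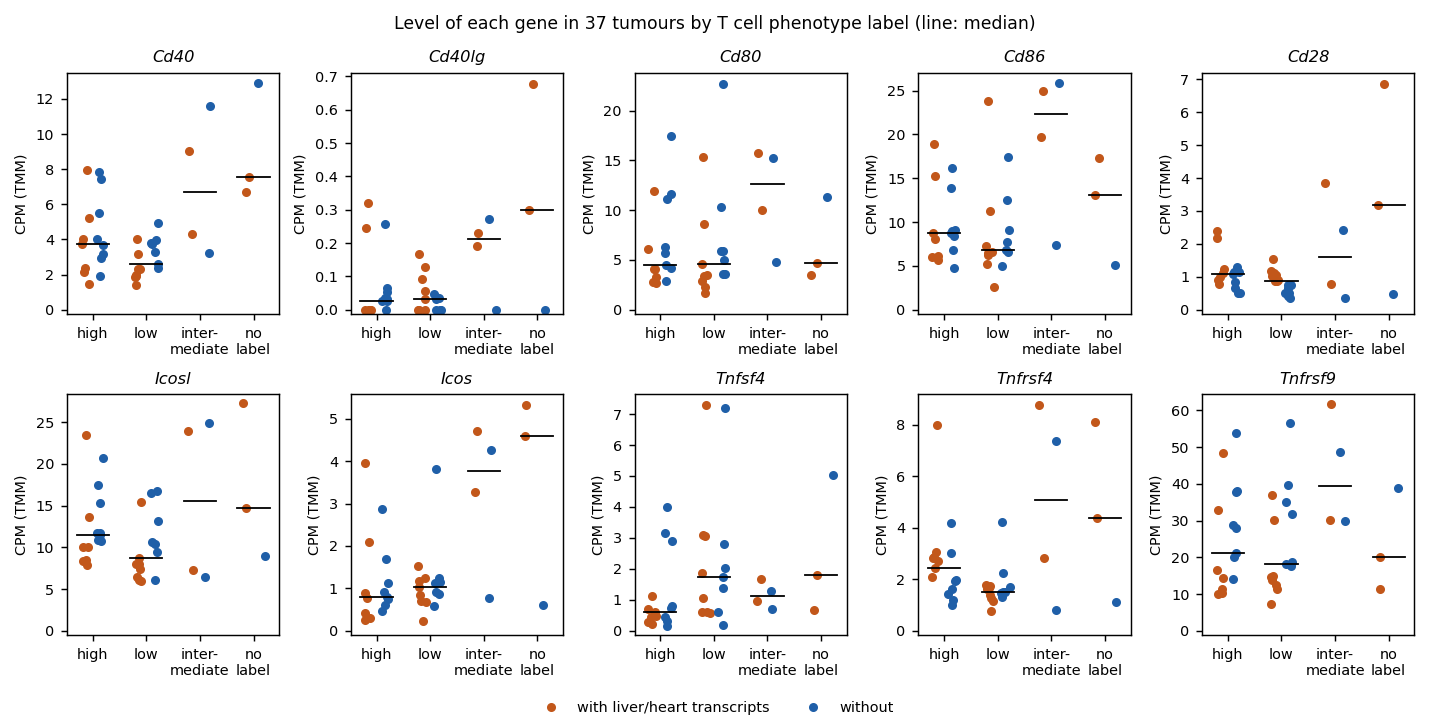
Each panel plots 1 gene in 37 tumours, in CPM with TMM scaling on a linear axis, by phenotype label. Points are tumours, coloured by whether the library held liver and heart transcripts, and lines are medians. High and low tumours overlap in every panel, and the 2 top points of Tnfsf4, at 7.28 and 7.19 CPM, are the tumours of low clone bulk_6556c3.

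The labels ask how T cell high and T cell low tumours differ, and for these 10 genes no difference passed the test. Of 20348 genes tested on clone sums, 0 were called (0%, edgeR quasi-likelihood, adjusted p under 0.05), with 1516 genes at an unadjusted p below 0.05 and 27 genes called by DESeq2. The 10 co-stimulatory genes had adjusted p from 0.667 to 0.938. Of the 10 differences 9 were positive, against 49.99% of all genes, and their median was 0.36 on the log2 scale against 0.00 for all genes. In libraries without liver and heart transcripts, 0% of 17905 genes were called (1168 at an unadjusted p below 0.05), and 6 of the 9 genes that passed the filter on low counts were positive. Their median there was 0.18. Without high clone bulk_7160c2, the differences of Cd80, Icos and Tnfrsf9 turned negative (-0.01, -0.19 and -0.06).

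Cd40, the receptor that licenses antigen-presenting cells, was at 1.45 CPM in the lowest high tumour, 3.72 CPM in the median and 7.93 CPM in the highest. Low tumours ran from 1.42 CPM through a median of 2.59 to 4.93 CPM. Of 7 high clones, 3 lay above the highest low clone, and the others were within the low range. Clones averaged 4.37 ± 1.84 CPM in high (SD, n = 7) and 2.93 ± 0.709 CPM in low (n = 7), a log2 difference of 0.59 ± 0.28 (SE, adjusted p = 0.667, edgeR). In libraries without the transcripts it was 0.41 ± 0.30 (adjusted p = 0.849). Its ligand gene Cd40lg was at 0 to 0.321 CPM in high tumours and at 0 to 0.167 CPM in low tumours, with medians of 0.0273 and 0.0330 CPM.

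The CD28 ligands did not separate the phenotypes. Cd80 had a lowest, median and highest value of 2.67, 4.47 and 17.4 CPM in high tumours and of 1.68, 4.58 and 22.7 CPM in low tumours. The highest of all 34, bulk_2669c4 tumour 3, is labelled low. The difference of clone sums was 0.20 ± 0.36 (adjusted p = 0.919, edgeR) and turned to -0.12 in the libraries with liver and heart transcripts. Cd86 had 4.75, 8.75 and 18.9 CPM in high tumours and 2.60, 6.82 and 23.8 CPM in low tumours, so the highest low tumour, bulk_6419c1 tumour 1, was above all high tumours. Intermediate tumours reached 25.8 CPM. Its difference was 0.17 ± 0.27 (adjusted p = 0.905, edgeR).

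Cd28 itself was low throughout, with 0.502, 1.07 and 2.39 CPM in high tumours and 0.354, 0.863 and 1.55 CPM in low tumours. High clones averaged 1.15 ± 0.506 CPM (SD, n = 7) and low clones 0.803 ± 0.176 CPM (n = 7), a log2 difference of 0.52 ± 0.34 (adjusted p = 0.715, edgeR). The difference was 0.79 ± 0.39 in libraries without liver and heart transcripts, where 5 of 7 high clones were above the highest of 6 low clones, at 0.730 CPM. It did not pass there either (adjusted p = 0.774, edgeR, 0% called).

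Icosl and Icos form the next pair. Icosl, the ligand gene read mainly by antigen-presenting cells, had 7.93, 11.5 and 23.5 CPM in high tumours and 5.96, 8.70 and 16.7 CPM in low tumours, with a difference of 0.41 ± 0.28 between clones (adjusted p = 0.729, edgeR). Icos had 0.247, 0.789 and 3.96 CPM in high tumours and 0.231, 1.04 and 3.80 CPM in low tumours, so that the median was on the low side while the clone difference was 0.31 ± 0.39. That difference was -0.09 in libraries without the transcripts.

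Tnfsf4 and Tnfrsf4, ligand and receptor of the OX40 pair, had differences of opposite sign. Tnfsf4 had 0.167, 0.599 and 4.01 CPM in high tumours and 0.185, 1.74 and 7.28 CPM in low tumours. Its clone difference was -1.14 ± 0.60 (adjusted p = 0.675, edgeR), the only negative value of the 10, and -0.47 without low clone bulk_6556c3. Tnfrsf4 had 1.01, 2.45 and 7.99 CPM in high tumours and 0.777, 1.51 and 4.23 CPM in low tumours, a clone difference of 0.81 ± 0.34 (adjusted p = 0.667) that was 0.40 ± 0.27 without high clone bulk_7160c2.

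The Tnfrsf4 difference was larger in 1 class of libraries. In those with liver and heart transcripts, the 7 high tumours were at 2.07 to 7.99 CPM and the 8 low tumours at 0.777 to 1.77 CPM. These ranges do not meet, but the share of all genes for which that holds was not counted. Both groups include first tumours that were closer to each other than tumours of the same clone, so the tumours may not all be independent. In those without, 8 high tumours at 1.01 to 4.18 CPM overlapped 7 low tumours at 1.29 to 4.23 CPM. The clone differences were 1.21 ± 0.33 (adjusted p = 0.419, edgeR, 0% of 18830 genes called) and 0.18 ± 0.40. The test of the difference between the classes, chosen after the data were seen, gave 1.21 ± 0.53 (unadjusted p = 0.0287 and adjusted p = 0.767 over 18593 genes, edgeR on tumours, 0% called). That test had no term for clone, so tumours of 1 clone counted as separate replicates and their pairing across classes was not used. For Tnfsf4 the clone differences in the 2 classes were -2.09 ± 0.60 and -0.81 ± 0.78, and the test between classes had an adjusted p of 0.771.

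Tnfrsf9, the 4-1BB receptor gene, had the smallest difference of the 10 between phenotypes on all libraries. It had 9.96, 21.3 and 53.8 CPM in high tumours and 7.25, 18.3 and 56.7 CPM in low tumours. High clones averaged 27.0 ± 11.3 CPM (SD, n = 7) and low clones 24.6 ± 11.3 CPM (n = 7). The difference of 0.13 ± 0.29 was -0.01 ± 0.29 in libraries without the transcripts.

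**Figure D2:**
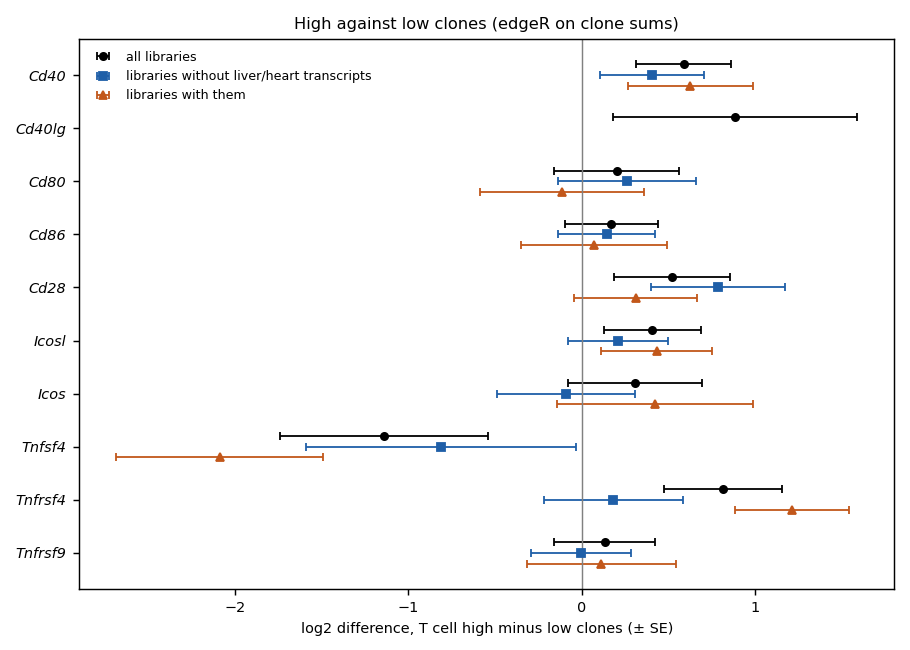
Log2 differences of T cell high minus low clones with their standard errors, for 10 genes, in all libraries (circles), in libraries without liver and heart transcripts (squares) and in those with them (triangles). Tnfsf4 lies left of 0 in all 3 fits, and Tnfrsf4 moves from 0.18 to 1.21 between the classes. Cd40lg was fitted only on all libraries.

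The 2 intermediate clones were compared with the low and the high clones. On all libraries their fitted level was above that of low clones for 9 of 10 genes and above that of high clones for all 10, though for Tnfsf4 the latter turned in libraries without liver and heart transcripts (0.48 for high minus intermediate). The median log2 difference from low clones was 1.25, against 0.03 for all 20348 genes. No gene of the 20348 was called against either group (0% in both, edgeR), while 3261 had an unadjusted p below 0.05 against low clones, so the p-values of the co-stimulatory genes (adjusted p from 0.132 to 0.734) are read against a wide background. Tnfrsf4 had the smallest unadjusted p of the 10, with a difference of 1.74 ± 0.46. It was called by DESeq2 (adjusted p = 0.0233, 4.57% of genes called). Cd40 and Tnfrsf4 were called when tumours were tested without regard to clone (adjusted p = 0.0488 and 0.0338, edgeR, 2.26% of genes called). They were also called with tumour number as a block, still without a term for clone (0.0282 and 0.0285, edgeR, 4.45% called). In both fits tumours of 1 clone counted as separate replicates.

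These values rest mostly on 1 of the 2 intermediate clones, though less so for Cd86 and Icos. Clone bulk_7160c5 was the highest of 16 clones for 9 of the 10 genes on all libraries, with Cd40 at 10.03 CPM, Cd86 at 22.0 CPM, Icos at 4.70 CPM, Tnfrsf4 at 8.62 CPM and Tnfrsf9 at 59.6 CPM. In libraries without the transcripts, bulk_2669c4 was level with it for Cd80 (14.9 CPM in both), and bulk_6419c1 (56.5 CPM) and bulk_6556c4 (54.2 CPM) were above bulk_7160c5 (47.4 CPM) for Tnfrsf9. The 2 tumours of bulk_7160c5 were alike, with Cd40 at 9.06 and 11.6 CPM and Icosl at 23.9 and 24.9 CPM. Clone bulk_6422c5, the other, had Cd28 at 0.612 CPM and Icosl at 7.05 CPM, both within the range of low clones. Its tumours differed, with Cd86 at 24.9 and 7.42 CPM and Icos at 3.27 and 0.765 CPM. Without bulk_7160c5, where bulk_6422c5 alone stands for the group and is assumed to vary like the others, Cd28 and Icosl fell below low clones (-0.40 and -0.47), and Cd40 was at 0.43 ± 0.49. Cd86 and Icos stayed at least 1.08 and 1.17 above low clones on the log2 scale, whichever clone was left out. Clone bulk_6422c5 had them at 18.4 and 2.33 CPM on all libraries. Without liver and heart transcripts it had 7.30 and 0.753 CPM, within the range of low clones. Without bulk_6422c5, where bulk_7160c5 alone stands for the group, differences from low clones were 1.77 for Cd40, 2.13 for Cd28 and 2.42 for Tnfrsf4.

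Markers of other cells were high in the same clone. The summed T cell list was 78.5 CPM in bulk_7160c5 and 18.2 CPM in bulk_6422c5, against at most 18.9 CPM in low clones, and the macrophage and monocyte list (12 genes) was 2774 and 1373 CPM. Regulatory T cell genes (5 genes) were at 125.2 and 50.3 CPM. Their part in the higher levels of the co-stimulatory genes was not tested.

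Clones differed from each other more than tumours of a clone did for 5 of the 9 genes tested, against 28.6% of 18593 genes (edgeR, F test over clones with a term for first or later tumour). These were Cd28 and Icosl (both adjusted p = 0.0122), Tnfsf4 (0.0231), Tnfrsf4 (0.0389) and Tnfrsf9 (0.0445), while Cd40 was at 0.0556. Without the term for first or later tumour, 13.7% of genes were called, and of the 9 genes only Icosl (0.0373) and Tnfsf4 (0.0362). With DESeq2 all 9 were called, with 48.9% of all genes. Leaving out bulk_7160c5 left 1 of the 9 called, Tnfsf4, with 18.2% of all genes called. In the main fit 13 of 14 genes of the T cell list were called, and their part in these calls was not tested. The test takes tumours as independent. First tumours of several clones, named above, were closer to each other than tumours of the same clone, so they may not be.

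Tnfsf4 had the widest range of the 10. Low clone bulk_6556c3 had 7.28 and 7.19 CPM in its 2 tumours, and no other tumour with a phenotype was above 4.01 CPM. Low clone bulk_6499c3 followed with 3.11 and 2.80 CPM. At the other end, both tumours of high clone bulk_6620c1 were low (0.599 and 0.167 CPM), as were those of bulk_6499c4 (0.470 and 0.326 CPM) and bulk_6555c3 (0.436 and 0.429 CPM). Low clones bulk_6694c2 (0.622 and 0.185 CPM) and bulk_6419c1 (0.567 and 0.619 CPM) were at a like level. The tumours of 2 high clones differed: bulk_2838c3 had 0.212 CPM in its first tumour and 3.17 and 2.91 CPM in the later 2, and bulk_6556c4 had 0.288 CPM in the first and 4.01 CPM in the second. Both first tumours are among the 7 that were closer to each other than tumours of 1 clone. Without bulk_6556c3 the clone test of Tnfsf4 no longer passed (adjusted p = 0.176, edgeR).

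Icosl had the smallest coefficient of variation of the 10 among clones (37.2% in libraries without the transcripts). It was at 23.9 and 24.9 CPM in bulk_7160c5, at 23.5 and 17.5 CPM in bulk_7160c2 and at 15.4 and 16.4 CPM in low clone bulk_6419c1. Low values were 5.96 CPM in bulk_6422c1, 7.97 and 6.06 CPM in bulk_6694c2 and 7.28 and 6.46 CPM in bulk_6422c5. Across the 16 clones Icosl ranged 4.16-fold and Tnfsf4 21.8-fold.

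**Figure D3:**
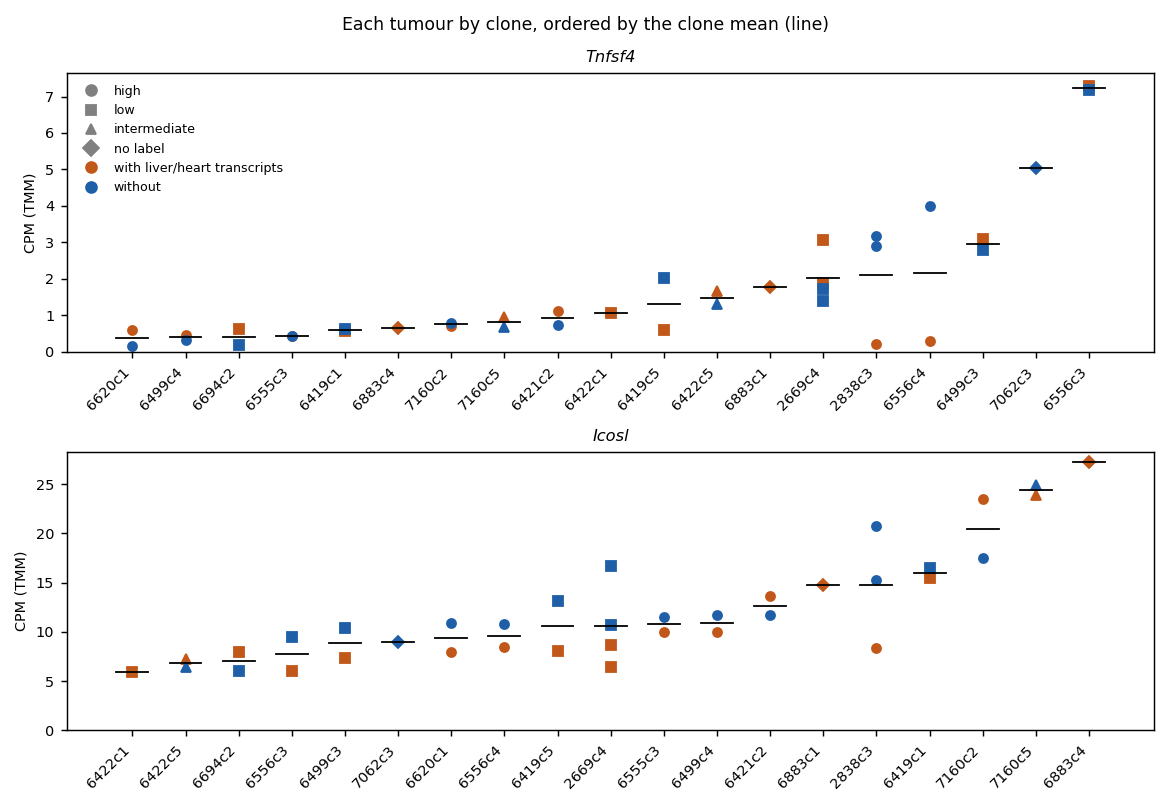
Tnfsf4 (top) and Icosl (bottom) in each of 37 tumours, in CPM on linear axes from 0, by clone and ordered by the clone mean (line). Shapes give the phenotype and colours the presence of liver and heart transcripts. The 2 tumours of bulk_6556c3 stand above all others for Tnfsf4, and those of bulk_7160c5, with the unlabelled bulk_6883c4, lead for Icosl.

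Some clones share the number in their names, and the labels do not state what it stands for. Such pairs of 1 high and 1 low clone are bulk_6499c3 with bulk_6499c4 and bulk_6556c3 with bulk_6556c4. In libraries without liver and heart transcripts, low clone bulk_6499c3 had Tnfsf4 at 2.78 CPM and high clone bulk_6499c4 at 0.324 CPM. Low clone bulk_6556c3 had 7.16 CPM and high clone bulk_6556c4 had 4.04 CPM. The direction is the same in both pairs, and 2 pairs allow no test. The share of all genes with 1 direction in both pairs was not counted. Cd28 was higher in the high clone of both pairs (0.351 and 1.13 CPM, 0.492 and 0.674 CPM). So were Cd86 (7.66 and 9.01 CPM, 6.80 and 8.81 CPM) and Icosl (10.3 and 11.7 CPM, 9.44 and 10.9 CPM). Tnfrsf4 was higher there too (1.46 and 1.98 CPM, 1.51 and 1.94 CPM). Icos was lower in the high clone of both (1.23 and 0.907 CPM, 0.861 and 0.755 CPM). The pairs differed for Cd80, which fell from 5.79 CPM in bulk_6499c3 to 4.18 CPM in bulk_6499c4 but was 3.57 CPM in bulk_6556c3 and 11.8 CPM in bulk_6556c4. Cd40 was alike in bulk_6499c3 and bulk_6499c4 (3.71 and 3.66 CPM) and differed in bulk_6556c3 and bulk_6556c4 (3.78 and 7.92 CPM). Tnfrsf9 was higher in both high clones, by little in bulk_6499c4 (18.5 and 19.9 CPM). In bulk_6556c3 and bulk_6556c4 it was at 18.2 and 54.2 CPM.

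The first tumour of a clone differed from its later tumours for 2 of the 9 genes tested, Cd28 and Tnfrsf9, in opposite directions, and 47.1% of 18593 genes were called in that comparison (edgeR, clone as a block). The share among the 9 is thus below the background. Cd28 was at 0.769 to 3.85 CPM (median 1.06) in libraries with liver and heart transcripts and at 0.344 to 2.43 CPM (median 0.669) in those without. It was higher in the first tumour in 14 of 15 clones, all but bulk_6555c3, with a log2 difference of 0.72 ± 0.18 (adjusted p = 0.00241). Tnfrsf9 was at 7.25 to 61.7 CPM with a median of 14.6 CPM in libraries with the transcripts and at 14.1 to 56.7 CPM with a median of 29.9 CPM in those without. It was lower in the first tumour in 11 of 15 clones, by a log2 difference of -0.76 ± 0.21 (adjusted p = 0.00572). The 4 exceptions were bulk_6421c2, bulk_6422c5, bulk_7160c2 and bulk_7160c5. The first tumours of several of the 15 clones, named above, were closer to each other than tumours of the same clone were. The counts of clones and the p-values take the 15 clones as independent, which these libraries may not be.

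The other 7 genes did not pass (adjusted p from 0.115 to 0.934). When libraries were split by liver and heart transcripts instead of tumour number, Icosl was called too, at -0.34 ± 0.13 (adjusted p = 0.0338, edgeR, 50.3% of genes called). Tumour number and these transcripts cannot be told apart, since they part in 1 library only. Medians of other markers differed between the classes, not all in 1 direction. The fibroblast list (8 genes) had 4389 CPM with and 11814 CPM without the transcripts. The macrophage and monocyte list had 886 and 1308 CPM, and the T cell list 10.2 and 12.3 CPM. The dendritic cell list (267.7 and 241.4 CPM) and the endothelial list (239.5 and 212.6 CPM) were higher with them. Within clones, dendritic cell genes had a median log2 difference of -0.48 for first against later tumours. Their part in the change of Cd28 and Tnfrsf9 was not tested.

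**Figure D4:**
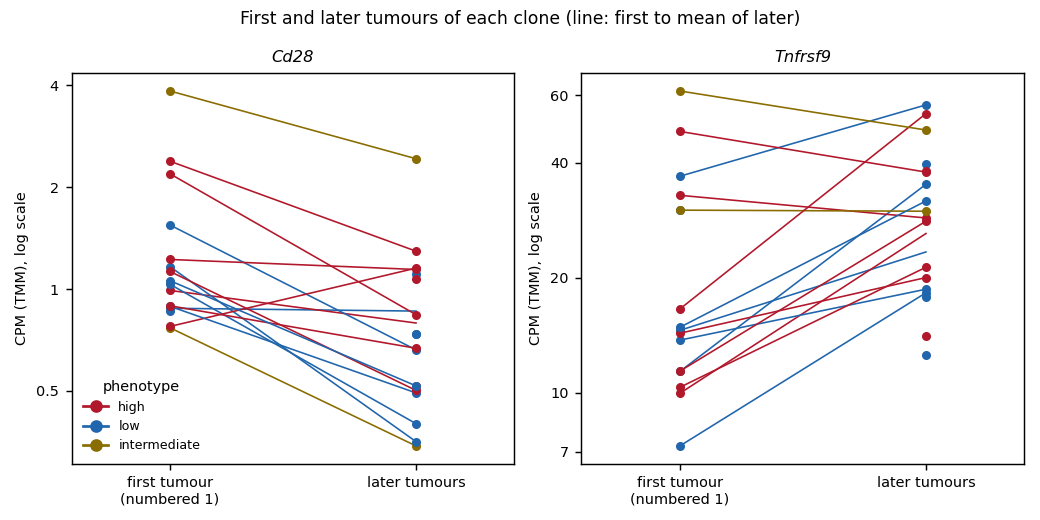
Cd28 (left) and Tnfrsf9 (right) in first and later tumours of 16 clones, in CPM on log axes. Points are tumours, coloured by phenotype, and lines join a first tumour to the mean of the later tumours of its clone. Cd28 falls in 14 of 15 clones and Tnfrsf9 rises in 11 of 15.

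Genes of the same pathways were counted in the same comparison, in which 47.1% of all genes were called, so the counts below are near or under that background. Of 19 tested genes among CD40 adaptors, NF-kB subunits and targets, 10 changed between first and later tumours, 3 higher and 7 lower in the first. Nfkb2 (-0.76 ± 0.10, adjusted p = 1.27e-05) and Relb (-0.56 ± 0.11, adjusted p = 0.000282), subunits of the non-canonical NF-kB pathway, were lower in first tumours, and the adaptor gene Traf6 was higher (0.45 ± 0.08, adjusted p = 0.000131, edgeR). Of 14 tested CD28 signalling genes, 1 was higher and 4 lower. Prkcq, which encodes the kinase PKC-theta, was higher (1.17 ± 0.29), and Vav1 (-0.74 ± 0.20) and Bcl10 (-0.22 ± 0.05) were lower. Of 16 further co-stimulatory receptor and ligand genes, 1 was higher, Tnfsf8 (CD30 ligand, 1.11 ± 0.26), and 3 were lower, among them Tnfrsf25 (-0.82 ± 0.22) and Tnfsf9 (-0.60 ± 0.17). Tnfsf9 is the ligand gene of 4-1BB and so moved in the direction of Tnfrsf9. Of the T cell list, 1 of 14 changed: Trac was higher (0.88 ± 0.21, adjusted p = 0.00192, edgeR).

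Between high and low clones, none of these lists held a called gene. Medians were 0.48 for the further co-stimulatory genes (14 of 16 positive, led by Tnfsf18 at 1.96 ± 0.49), 0.31 for CD28 signalling (13 of 14 positive) and 0.12 for the CD40 list (15 of 20 positive), against 0.00 for all genes. In libraries without the transcripts they were 0.39, 0.16 and -0.06. The T cell list had 1.28 and 0.86. Tnfsf18, the GITR ligand gene, had the smallest p of its list and an adjusted p of 0.659. Among clones, 6 of 16 further co-stimulatory genes were called, led by Tnfrsf25 (adjusted p = 0.000608), 9 of 19 of the CD40 list, led by Ccl17 (0.00135), and 3 of 14 of CD28 signalling, among them Vav1 (0.0331, edgeR), against 28.6% of all genes.

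Ligand and receptor levels were compared over 15 clones, as mean log2 CPM in libraries without liver and heart transcripts. In all, 16 relations were computed: 6 pairs, and each of the 10 genes with the summed T cell list. After adjustment over the 16, 11 Pearson and 7 Spearman correlations passed 0.05. Leaving out the 2 clones farthest from the median of the first gene of each relation left 0 Pearson correlations (smallest adjusted p = 0.0502) and 1 Spearman correlation (Cd40lg with the T cell list, 0.0424). The clone left out most often was bulk_7160c5. Fewer clones and a narrower range weaken the test, so lost calls alone cannot show that a relation rests on those clones. The Pearson r with the T cell list went from 0.76 to 0.72 for Cd40 and from 0.73 to 0.30 for Icos. Icosl with Icos had a Pearson r of 0.77 within the high and within the low clones. Within the 7 high and within the 6 low clones, 0 of 16 passed (exact permutation).

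Icosl and Icos had a Pearson r of 0.78 (permutation p = 0.00048, adjusted p = 0.00228) and a Spearman rho of 0.73 (permutation p = 0.00274, adjusted p = 0.00784). Without bulk_6694c2 and bulk_7160c5 the r was 0.58 (adjusted p = 0.153), and it was 0.77 within high clones and 0.77 within low clones (exact permutation p = 0.0321 and 0.0958, neither passing after adjustment). With all libraries it was 0.70.

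Cd40 and Cd40lg had r = 0.75 and rho = 0.68 (permutation p = 0.00348 and 0.00763, adjusted p = 0.00619 and 0.0174), with Cd40lg at 0 to 11 counts in these libraries. The r was 0.43 without bulk_6556c4 and bulk_7160c5 and 0.27 within high clones. Cd86 and Cd28 had r = 0.65 and rho = 0.45 (permutation p = 0.0109 and 0.0971, adjusted p = 0.0175 and 0.155), and r = 0.31 without bulk_6694c2 and bulk_7160c5. For Cd80 and Cd28 r was 0.49 and rho 0.35 (adjusted p = 0.0862 and 0.261, permutation).

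The other 2 pairs showed no relation past the threshold. For Tnfsf4 and Tnfrsf4 r was 0.02 and rho 0.22 (permutation p = 0.955 and 0.424, adjusted p = 0.955 and 0.522). For Tnfsf9 and Tnfrsf9 r was 0.15 and rho 0.10 (permutation p = 0.585 and 0.731, adjusted p = 0.668 and 0.731). Tnfsf4 and Tnfrsf9 were also the 2 genes whose level did not follow the summed T cell list, with r of 0.14 and 0.26 (adjusted p = 0.671 and 0.437, permutation). The other 8 had r from 0.60 (Cd80) to 0.85 (Cd40lg), all past the threshold before the 2 clones were left out. With all libraries Tnfrsf9 had r = 0.67 with the T cell list (adjusted p = 0.00527, permutation), a value that mixes both classes of libraries.

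**Figure D5:**
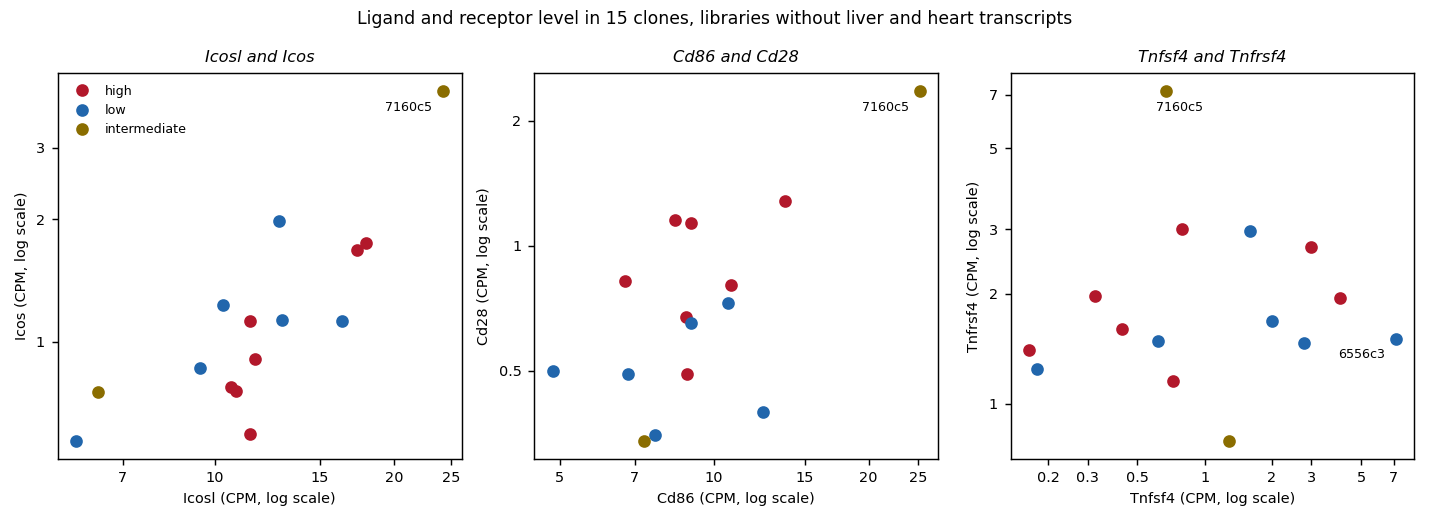
Ligand (x axis) against receptor (y axis) in 15 clones, in CPM on log axes, for libraries without liver and heart transcripts. Points are clones coloured by phenotype. Icosl and Icos rise together with bulk_7160c5 at the upper right, Cd86 and Cd28 do so less tightly, and Tnfsf4 shows no such order with Tnfrsf4.

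Levels were also set against cell markers. The summed T cell list, the denominator of the first shares, was itself lower in low clones, at a median of 11.7 CPM against 21.1 CPM in high ones, and the part of this in the shares was not tested. As a share of the summed T cell list in libraries without liver and heart transcripts, Icos had a median of 5.49% in 7 high clones (2.58 to 9.35%) and 9.65% in 6 low clones (7.04 to 13.2%). Tnfrsf4 had medians of 10.6% and 13.6%, with ranges of 5.01 to 14.4% and 11.7 to 27.8%. Tnfrsf9 was at 132.8% and 251.8%, so its level alone exceeded the sum of 14 T cell genes in the median clone of both groups. Cd28 was at 4.55% and 3.90%. All ranges overlap, and the shares are descriptions with no test. On all libraries the order turned for Cd28 (5.34% in high and 6.94% in low clones). The median share of Icos in intermediate clones moved from 6.67% to 9.39% and that of Cd28 from 3.37% to 3.94%, and that of Cd40lg moved from 0.0860% to 0.323% in low and from 0.199% to 0.487% in intermediate clones.

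On the presenting side, the genes were set against the summed macrophage and dendritic cell lists. Icosl had medians of 0.784% in high and 0.742% in low clones, with its lowest share, 0.508%, in intermediate clone bulk_6422c5 and its highest, 1.03%, in high clone bulk_2838c3. Cd86 was at 0.588% and 0.543%. Cd40 was at 0.245% and 0.240%, with its highest share, 0.517%, in high clone bulk_6556c4. Cd80 was at 0.474% and 0.350%, and at 0.411% and 0.415% on all libraries. In intermediate clones the shares of Cd86 and Cd80 moved from 0.667% to 0.936% and from 0.410% to 0.511% when all libraries were used. Tnfsf4 ranged from 0.0125% in high clone bulk_6620c1 to 0.549% in low clone bulk_6556c3.

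The genes whose levels were most like each of these over the 15 clones were found among 12962 genes of at least 1 CPM, and the correlations are descriptions over shared libraries. Cd86 was most like Fermt3 (r = 0.98), Was (0.97) and Cd4 (0.96), the first 2 being genes of blood cells. Icosl was most like Rcsd1 (0.96), Fgd2 (0.93) and Pik3cd (0.92). Genes like Tnfrsf4 included Clec7a (0.94), which encodes the myeloid receptor dectin-1, and Myo1g (0.93). Icos was most like Ifi30 (0.91), Myo1g (0.91) and Itgb2 (0.90). Cd40 was most like Emb (0.88), Myd88 (0.87) and Arg1 (0.87), and Cd80 was most like Ltb4r1 (0.89), F10 (0.88) and Csk (0.88). The r of the nearest genes was lower for Tnfrsf9 (Aplp1, Tmem219 and Adck4, 0.84 to 0.83) and for Tnfsf4 (Folr2 at 0.81, Tram1 at 0.79 and Gipc2 at 0.76). Cd28 and Cd40lg averaged below 1 CPM and have no such genes. Among the 8 genes compared with each other, Cd86 and Icos had the highest r (0.89), and the r of Tnfsf4 with the other 7 lay between -0.12 and 0.23.

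The 3 tumours without a phenotype entered no comparison. Tumour 1 of bulk_6883c4 had Cd28 at 6.86 CPM, Cd40lg at 0.676 CPM, Icos at 5.32 CPM and Icosl at 27.3 CPM, above all 34 labelled tumours, with the T cell list at 173.1 CPM and the B cell list (8 genes) at 227.8 CPM. Its Tnfrsf9 was low for the series at 11.4 CPM. Tumour 1 of bulk_6883c1 had Tnfrsf4 at 8.11 CPM and Icos at 4.60 CPM. Tumour 2 of bulk_7062c3 had the highest Cd40 of all 37, at 12.9 CPM, and Tnfsf4 at 5.03 CPM, with Cd28 at 0.476 CPM, Cd40lg at 0 counts and a T cell list of 4.97 CPM. Of the other presenting-side genes in that tumour, Cd80 was at 11.3 CPM, while Cd86 (5.07 CPM) and Icosl (8.94 CPM) were below their medians over the 37 tumours (8.42 and 10.7 CPM).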

How the data were processed

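Whole tumours were sequenced on an Illumina NextSeq from 500 ng of RNA, and reads were aligned with STAR to mm10 and counted with featureCounts, per the submitters' processing notes. No version, annotation or strand setting is stated (not given in the sources used here). The deposited table holds raw read counts per gene, and GENCODE M21 held 37607 of the 39017 identifiers. Phenotypes were compared with edgeR 4.0.16 (R 4.3.3) on counts summed per clone, with TMM scaling, edgeR's filter on low counts, the quasi-likelihood test and Benjamini-Hochberg adjustment over all genes tested (threshold 0.05). Differences among clones and between first and later tumours were tested on tumours, with clone as a term. Standard errors are the log2 difference over the square root of F and are approximate. Levels are CPM with TMM scaling. DESeq2 1.42.0, limma 3.58.1, other scalings, filters and library sets, and leaving out each clone were alternatives. The scripts were tested on simulated data. Named genes are the 10 genes, up to 3 called genes (or the one with the smallest p) of each list, and the 3 genes most like each of the 10. Some genes that this rule names are not reported here. The genes and lists were chosen with earlier results of these data known. Where nothing says that tumours of a clone came from separate mice, p-values measure the spread between these samples.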

Additional observations from a re-analysis of the deposited data

Results flagged for a closer look

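A gap test that chance passes in about 1 in 20 groups was applied to 50 groups. These were the 6 or 7 clones of a phenotype, or the 4 intermediate tumours. In 9 groups, all of them groups of clones, 1 clone was far above the others. Among high clones on all libraries, bulk_7160c2 stood apart for Icos (3.499 CPM, next 1.424), Icosl (22.66, next 14.35) and Tnfrsf4 (6.958, next 2.553). Among low clones, bulk_6556c3 stood apart for Tnfsf4, at 7.369 CPM on all libraries (next 2.941) and 7.165 CPM without liver and heart transcripts (next 2.779). Low clone bulk_2669c4 stood apart for Tnfrsf4, at 2.409 CPM (next 1.627) and 2.977 CPM (next 1.684) in the same sets, and for Cd80 in libraries without the transcripts, at 14.88 CPM (next 5.791). Low clone bulk_6419c1 stood apart for Cd86 on all libraries, at 18.81 CPM (next 8.979).

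In tumours outside the comparisons, 5 levels were above all 34 tumours with a phenotype. Tumour 2 of bulk_7062c3 had Cd40 at 12.89 CPM (highest labelled 11.59). Tumour 1 of bulk_6883c4 had Cd40lg at 0.6757 CPM (0.3206), Cd28 at 6.858 CPM (3.849), Icos at 5.321 CPM (4.707) and Icosl at 27.26 CPM (24.89).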

How the results depend on the processing

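Of 906 log2 differences of the 10 genes under alternatives, 864 kept their direction and side of the threshold, 30 turned sign and 12 passed the threshold only there. DESeq2 called 9097 genes among clones (9 of the 9 co-stimulatory genes), 27 between high and low, 536 between high and intermediate and 929 between intermediate and low (1 of the 10). Without a term for first or later tumour, 2549 genes differed among clones (2 of 9). Ignoring the clone gave 38, 4 and 421 genes for the 3 phenotype comparisons in the same order (0, 0 and 2 co-stimulatory genes), voom gave 130 for intermediate against low, and libraries without liver and heart transcripts gave 1 for high against intermediate. The cause was not tested.

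With tumour number as a replicate block and no term for clone, 77, 17 and 828 genes were called (0, 0 and 2 co-stimulatory genes), and Cd80 in high against low was -0.037. Deviations of first tumours of different clones had a mean correlation of 0.504 (lowest -0.342), and those of later tumours 0.316. A first and a later tumour had -0.442 in different clones and -0.270 in the same clone. Tumours that were both first or both later thus deviated together on average, though not in every pair.

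Signs turned as follows. High minus low: Cd80 -0.12 in libraries with the transcripts and -0.018 ignoring the clone, and Icos -0.089 and Tnfrsf9 -0.0060 in libraries without. First minus later: Cd86 0.0032 with DESeq2 and 0.038 with total counts. High minus intermediate: Tnfsf4 0.48 in libraries without the transcripts and 0.23 without the libraries richest in them. Pearson r: Cd80 and Cd28 -0.10 within high clones, Tnfrsf9 and the T cell list -0.053 within low clones, and on all libraries Tnfsf4 and Tnfrsf4 -0.26, Tnfsf9 and Tnfrsf9 -0.043, and Tnfsf4 and the T cell list -0.091.

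Leaving out each clone gave 3512 to 5492 genes among clones (1 to 6 co-stimulatory), 8093 to 9018 for first against later (2 to 3), 0 to 0 for high against low (0 to 0), 0 to 3 for high against intermediate (0 to 0) and 0 to 567 for intermediate against low (0 to 3). High minus low ran from -0.014 to 0.43 for Cd80, -0.19 to 0.44 for Icos and -0.061 to 0.37 for Tnfrsf9. High minus intermediate ran from -1.61 to 0.91 for Cd28, -1.18 to 0.15 for Cd40, -0.94 to 0.86 for Icosl, -1.61 to 0.44 for Tnfrsf4 and -0.63 to 0.15 for Tnfsf4. Intermediate minus low ran from -0.40 to 2.13 for Cd28 and -0.47 to 1.34 for Icosl. First minus later ran from -0.14 to 0.11 for Cd86, -0.28 to 0.022 for Icos and -0.26 to 0.12 for Tnfsf4. Low counts limit Cd40lg most, and 2 intermediate clones limit every comparison with them. When 1 of the intermediate clones was left out, the other stood alone for its group.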
